A study of Mus musculus with 16 samples.

Results

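The measurements here follow 10 genes of heart muscle in RNA of whole mouse lung. They were Nppa, Myl7, Myl4 and Sln, which are typical of atrial muscle, Myh6, Mybpc3, Tnnt2, Tnni3 and Actc1, which build the cardiac sarcomere, and Hspb7, a small heat shock protein of heart and skeletal muscle. The genes were chosen by name as heart muscle genes, with earlier results of these data known. Every spot annotated to one of them was taken, 29 spots of the 62976 on the array. They are 10 of 20863 named genes, and 10 of 10 were bright enough to be tested along with 20294 others.

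The study gave C57BL/6 mice a CAV1 target site blocker, an oligonucleotide made to shield a microRNA site of the Cav1 transcript, together with bleomycin or phosphate-buffered saline (PBS), at an age of 9 to 12 weeks. Each animal's blocker went into the trachea 3 times relative to the bleomycin or PBS, at 4 days and 2 days ahead of it and again 4 days later. There were 4 groups. PBS with the control blocker had 2 samples, PBS with the CAV1 blocker at 5 mg/kg had 2, bleomycin at 1 unit/kg with the control blocker had 6, and bleomycin at 1 unit/kg with the CAV1 blocker at 5 mg/kg had 6. The dose of the control blocker and the day of collection were not given in the sources used here. Each sample was whole-lung RNA, 0.2 µg on 1 single-colour Agilent array, and the value of a spot is a log2 intensity, so that a difference of 1 is a doubling. Nothing in the labels ties each sample to its own animal, and p-values therefore measure only the spread between these samples.

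In the mouse, heart muscle does not stop at the atrium. Sleeves of atrial-type cardiomyocytes run along the pulmonary veins into the lung, and they carry the contractile proteins and the hormone of the atrium. In cardiac cells the thick filament is built of myosin heavy chains with their light chains and binding protein C, the thin filament of actin with the troponins, and calcium is returned to the sarcoplasmic reticulum by a pump that sarcolipin restrains. A whole-lung sample can also hold pieces of neighbouring tissue, and in bulk RNA fewer cells of a type and less RNA per cell cannot be told apart.

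Over all spots, the correlation between pairs of arrays ran from 0.973 to 0.996, with a median of 0.990. Over the genes tested, the median correlation of an array with the other 15 was lowest for PBS control-blocker array 2 (0.979), then for PBS CAV1-blocker array 1 and bleomycin CAV1-blocker array 6 (0.984 each). RNA integrity was 10 in bleomycin control-blocker arrays 1 and 5 and 9 elsewhere. Fast skeletal muscle genes split the arrays in 2 by their mean level, although Myh2, Mylpf and Mybpc2 overlapped between the 2 sides. The mean over 17 genes was between 9.41 and 11.63 in 11 arrays. In the other 5 it was between 6.85 and 7.98. These 5 were PBS arrays 1 and 2 with the CAV1 blocker, bleomycin array 3 with the CAV1 blocker, and bleomycin arrays 2 and 6 with the control blocker. Of the genes of stratified squamous epithelium, Krt4, Krt13, Krt5, Krt14, Sprr1a, Sprr3 and Lor followed the same split. Krt13 was at 13.70 to 14.97 in the 11 arrays and 5.97 to 6.08 in the 5. Krt6a, Ivl, Krt1 and Krt10 did not follow it, and their values overlapped between the 2 sides. PBS control-blocker array 1 alone also had high Myl2 (11.25, against 6.26 to 6.78 elsewhere), a light chain of ventricle and slow fibres, and high Dntt of the thymus (11.09, against 6.61 to 7.24).

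The stretches before the transcription starts are shown for 4 of the members. They are 2 whose letters hold the CArG box, the core of serum response elements (Myl7 and Actc1), the most variable member (Nppa) and the member that passed the test (Hspb7). Whether these letters bear on the values was not tested. RefSeq's promoter table (GRCm38.p6) holds 9 of the 10 genes. Each run below is the 250 bases before the start, read 5′ to 3′ on the gene's own strand, at chr4:148000472-148000721 (+) for Nppa, chr11:5898783-5899032 (−) for Myl7, chr2:114052876-114053125 (−) for Actc1 and chr4:141420529-141420778 (+) for Hspb7. Capitals mark matches, on either strand, to the CArG box, the MEF2 box, the GATA-type strings TGATAA and AGATAA, the NKX2-5-type string AAGTG, the MCAT string CATTCC and the TATA string TATAAA.
Nppa: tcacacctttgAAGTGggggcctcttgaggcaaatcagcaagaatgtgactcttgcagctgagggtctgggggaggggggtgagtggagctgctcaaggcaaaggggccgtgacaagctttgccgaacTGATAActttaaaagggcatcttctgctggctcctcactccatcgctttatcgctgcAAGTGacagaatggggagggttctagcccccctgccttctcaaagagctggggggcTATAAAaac
Myl7: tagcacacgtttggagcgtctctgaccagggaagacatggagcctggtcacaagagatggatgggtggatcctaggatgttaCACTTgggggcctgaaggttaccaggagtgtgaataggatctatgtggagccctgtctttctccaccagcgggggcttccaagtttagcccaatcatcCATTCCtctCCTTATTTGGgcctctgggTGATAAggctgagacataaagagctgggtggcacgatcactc
Actc1: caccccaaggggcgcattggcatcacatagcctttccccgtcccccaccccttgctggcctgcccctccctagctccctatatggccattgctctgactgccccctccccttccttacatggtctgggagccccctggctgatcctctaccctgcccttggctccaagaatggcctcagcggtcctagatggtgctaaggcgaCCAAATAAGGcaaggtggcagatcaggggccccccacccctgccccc
Hspb7: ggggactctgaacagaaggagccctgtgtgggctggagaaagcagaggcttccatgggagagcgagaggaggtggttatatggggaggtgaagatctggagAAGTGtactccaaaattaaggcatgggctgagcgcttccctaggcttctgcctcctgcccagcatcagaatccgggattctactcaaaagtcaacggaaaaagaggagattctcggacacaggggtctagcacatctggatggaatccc
Myl7 held a CATTCC, a CArG box and a TGATAA within its last 70 bases, 70 to 65, 61 to 52 and 42 to 37 bases before the start. Actc1 held 1 match, a CArG box 47 to 38 bases before the start. In Nppa a TGATAA lay 122 to 117 bases before the start and a TATAAA 9 to 4 bases before it, and Hspb7 held only an AAGTG, 149 to 145 bases before the start. No matches overlapped each other in the members' windows. The Tnni3 window and the Tnnt2 window at chr1:135836739-135836988 (+) held no match. Of all 32851 such windows, 1.47% held a CArG box, 0.508% a MEF2 box (Mybpc3 among the members), 7.94% a TGATAA (Nppa, Myl7 and Mybpc3), 9.99% an AGATAA (Tnnt2), 40.7% an AAGTG (6 of the 10 member windows), 12.6% a CATTCC (Myl7, Myh6 and Tnnt2) and 12.4% a TATAAA (Nppa). A match describes the letters of the window and is not evidence that a factor binds there.

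In every sample all 10 members were above the array median. Hspb7 was the dimmest, and its lowest value, 7.06 in PBS CAV1-blocker array 1, was above that of 58.3% of spots, where the median of all spots was 6.51 to 6.52 and the 25th percentile 5.97 to 5.99. They were also among the most variable genes of the array. Their SD over the 16 arrays had a median of 0.506, against 0.184 over all genes tested, and each stood between the 89.9th percentile (Actc1) and the 99.4th (Nppa). The spread lay mostly within the groups, since the residual SD after fitting a mean per group had a median of 0.443 for the members and 0.168 for all genes. The next paragraphs go through the members by role.

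Nppa encodes atrial natriuretic peptide, the hormone stored in atrial muscle granules. It was at 13.98 and 13.00 in the PBS control-blocker arrays and 11.84 and 12.67 in the PBS CAV1-blocker arrays. After bleomycin it ran from 11.41 through a median of 12.68 to 14.92 with the control blocker, and from 11.27 through 11.94 to 13.23 with the CAV1 blocker. The PBS groups did not overlap, whereas the bleomycin groups overlapped each other and both PBS groups. Bleomycin control-blocker arrays 3 (14.92), 4 (13.93) and 1 (13.29) were high and arrays 6, 2 and 5 (11.41, 11.80 and 12.07) low within a single group, whose SD was 1.38. Its 10 spots gave nearly the same profile, with correlations of 0.997 to 1.00.

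Myl7, the regulatory light chain of atrial myosin, was at 12.08 and 12.27 in PBS with the control blocker and 11.61 and 12.09 with the CAV1 blocker. After bleomycin it ran from 10.88 through 11.27 to 12.33 with the control blocker and from 10.85 through 11.32 to 11.86 with the CAV1 blocker. Of the 12 bleomycin arrays, only control-blocker array 3 was above the PBS control-blocker arrays. Myl4, the essential light chain of the atrium, was at 15.29 and 14.66 in PBS with the control blocker and 14.54 and 15.03 with the CAV1 blocker. It ran from 14.29 through 14.55 to 15.42 after bleomycin with the control blocker and from 14.02 through 14.24 to 14.90 with the CAV1 blocker. All groups of Myl4 overlapped. Sln encodes sarcolipin, a small inhibitor of the calcium pump that is found in atrium and in skeletal muscle. It was at 14.29 and 13.07 in PBS with the control blocker and 12.77 and 13.22 with the CAV1 blocker. After bleomycin it ran from 12.30 through 13.19 to 13.92 with the control blocker and from 12.53 through 12.85 to 13.83 with the CAV1 blocker. Sln, like Myh6 and Mybpc3 below, was highest in PBS control-blocker array 1, the array that also held the most fast skeletal muscle signal.

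Among the thick-filament genes, Myh6 encodes the alpha myosin heavy chain, the main cardiac motor of the adult mouse. It was at 15.70 and 14.58 in PBS with the control blocker and 14.88 and 15.40 with the CAV1 blocker. After bleomycin it ran from 14.47 through 14.74 to 15.58 with the control blocker and from 14.15 through 14.37 to 15.29 with the CAV1 blocker. The PBS arrays of one blocker enclosed those of the other. A second Myh6 spot was much dimmer, at 6.66 to 7.67, and correlated with the first at 0.837. Mybpc3, the cardiac myosin-binding protein C, was at 10.84 and 9.87 in PBS with the control blocker and 9.91 and 10.20 with the CAV1 blocker. It ran from 9.73 through 10.00 to 10.83 after bleomycin with the control blocker and from 9.07 through 9.46 to 10.15 with the CAV1 blocker. Its bleomycin groups overlapped, with 4 of the 6 CAV1-blocker arrays (9.07, 9.18, 9.29 and 9.63) below the lowest control-blocker array.

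Of the thin-filament genes, Tnnt2, the cardiac troponin T that ties the complex to tropomyosin, was at 12.55 and 12.77 in PBS with the control blocker and 12.06 and 12.65 with the CAV1 blocker. It ran from 11.72 through 12.16 to 13.02 after bleomycin with the control blocker and from 11.60 through 12.07 to 12.37 with the CAV1 blocker. All 6 bleomycin CAV1-blocker arrays were below both PBS control-blocker arrays. Tnni3, the inhibitory cardiac troponin I, was at 11.30 and 11.74 in PBS with the control blocker and 10.73 and 11.13 with the CAV1 blocker. It ran from 10.29 through 10.68 to 11.62 after bleomycin with the control blocker and from 10.06 through 10.38 to 11.06 with the CAV1 blocker. The PBS groups of Tnni3 did not overlap. Actc1, the cardiac alpha actin, was at 14.48 and 14.05 in PBS with the control blocker and 13.53 and 14.01 with the CAV1 blocker. It ran from 13.28 through 13.78 to 14.51 after bleomycin with the control blocker and from 13.46 through 13.79 to 14.34 with the CAV1 blocker. The PBS groups of Actc1 did not overlap, although 14.05 and 14.01 stood next to each other.

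Hspb7, a small heat shock protein that keeps sarcomere proteins from aggregating, had the clearest group pattern. It was at 8.85 and 9.21 in PBS with the control blocker, the 2 highest of all 16 arrays, and at 7.06 and 7.55 in PBS with the CAV1 blocker. After bleomycin it ran from 7.59 through 7.93 to 8.54 with the control blocker and from 7.46 through 7.68 to 8.24 with the CAV1 blocker. Both bleomycin groups lay wholly below the PBS control-blocker arrays, and the bleomycin groups overlapped each other. Its 10 spots correlated at 0.878 to 0.988. Its residual SD, 0.318, was smaller than that of the other members.

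**Figure D1:**
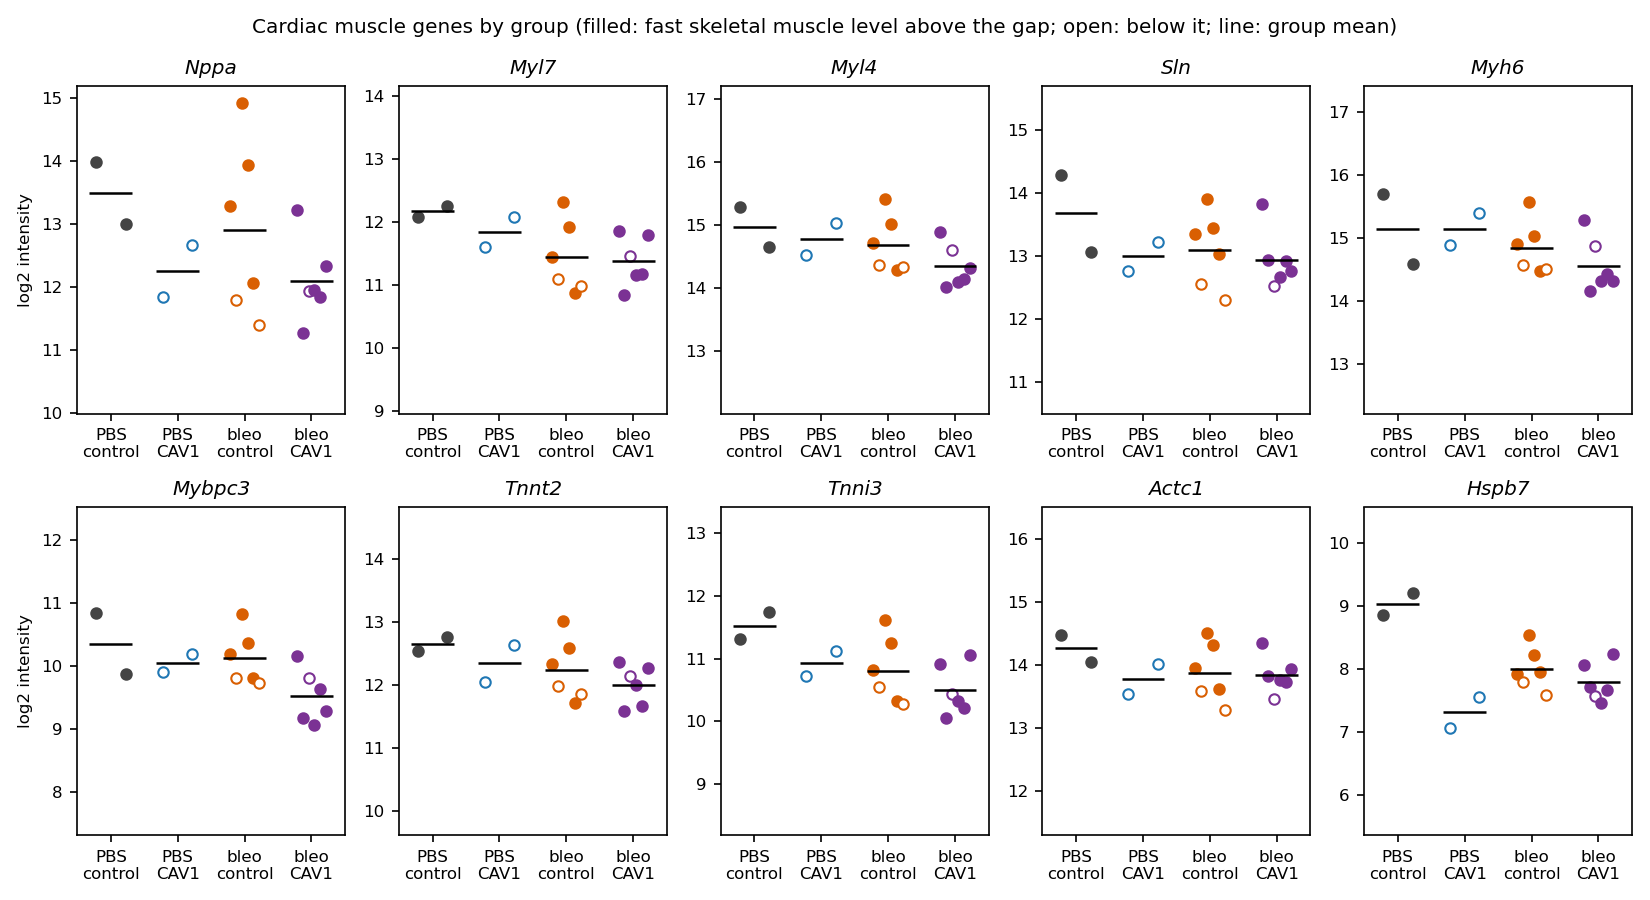
Log2 intensity (vertical axis) of each of the 10 genes in the 4 groups (horizontal axis), 1 point per array and a line at the group mean, with vertical axes of equal span; filled points are the 11 arrays with a fast skeletal muscle level of 9.41 or more and open points the 5 at 7.98 or less. Nppa spreads most, from 11.27 to 14.92, and Hspb7 has both PBS control-blocker arrays (8.85 and 9.21) above every other array.

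In the order of group means, PBS with the control blocker was highest for 10 of 10 members and bleomycin with the CAV1 blocker lowest for 8 of 10. The first count was 6 without PBS control-blocker array 1, 8 without PBS CAV1-blocker array 1 and 10 without any other single array. The second was 6 to 9 without 1 array. The members varied together, so neither count is made of 10 independent results. The exceptions to the second count were Actc1 and Hspb7, both lowest in PBS with the CAV1 blocker (13.77 ± 0.34 and 7.31 ± 0.34, SD, n = 2). For Nppa the means were 13.49 ± 0.69 (SD, n = 2), 12.90 ± 1.38 (n = 6), 12.26 ± 0.59 (n = 2) and 12.10 ± 0.65 (n = 6) for PBS control, bleomycin control, PBS CAV1 and bleomycin CAV1 blocker. For Myh6 they were 15.14 ± 0.79, 14.84 ± 0.43, 15.14 ± 0.37 and 14.56 ± 0.43 in the same groups. Of the 30 gaps between neighbouring group means of the 10 members, 26 were no larger than the larger SD of the pair. The 4 that exceeded it were Mybpc3 between PBS and bleomycin with the CAV1 blocker (10.05 ± 0.20 and 9.52 ± 0.42), Tnni3 between the PBS groups (11.52 ± 0.31 and 10.93 ± 0.28), Hspb7 between PBS with the control blocker and its next group (9.03 ± 0.25 and 8.0 ± 0.34), and Hspb7 between bleomycin and PBS with the CAV1 blocker (7.78 ± 0.30 and 7.31 ± 0.34).

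With the control blocker, bleomycin against PBS sets injured lung against lung given vehicle. Of the 10 cardiac genes, 1 passed the test and fell, Hspb7, where 2.41% of all 20304 genes tested were called in either direction and 0.448% were called lower. Hspb7 fell by 1.03 on the log2 scale, from 9.03 ± 0.25 (SD, n = 2) to 8.0 ± 0.34 (n = 6), a 2.04-fold difference (SE 0.238, 95% interval −1.54 to −0.52, limma adjusted p = 0.0369). It was the only member whose groups did not overlap, and 4.04% of all genes lay wholly lower after bleomycin. All 10 estimates were below 0, with a median of −0.49. Of all genes 43.6% had an estimate below 0, and their median was 0.030. The members varied together (median r of 0.760 over 45 pairs), so their signs are not 10 independent results, here or in the other comparisons. The 9 members other than Hspb7 did not pass the test. The nearest were Tnni3 and Myl7. Tnni3 had an estimate of −0.71 (95% interval −1.42 to −0.0085, limma adjusted p = 0.308) and Myl7 of −0.73 (95% interval −1.46 to −0.0027, limma adjusted p = 0.313). For Myh6 the estimate was −0.30 with an interval from −1.03 to 0.43, and for Nppa −0.59 with an interval from −2.17 to 0.99. Without PBS control-blocker array 1, 6 of 10 estimates were below 0, those above it being Myl4 (0.036), Sln (0.032), Myh6 (0.26) and Mybpc3 (0.25). With the fast skeletal muscle level as a covariate 8 of 10 were below 0.

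Genes of fast skeletal muscle and of fat had estimates below 0 in the same comparison, none of them called. The fast skeletal muscle list was at 9.48 to 11.63 in the 2 PBS arrays and 7.11 to 9.90 in the 6 bleomycin arrays, with 17 of 17 estimates below 0 (median −1.48) and 0 called by limma, 5 having an unadjusted p under 0.05. The adipocyte list was at 11.23 to 11.87 and 9.58 to 10.70, with 10 of 10 below 0 (median −1.30), 8 of 10 wholly lower and 0 called, 8 having an unadjusted p under 0.05. Such a p with a lower value was found for 5.41% of all genes. With the fast skeletal muscle level as a covariate, the Hspb7 estimate was −0.84 (limma adjusted p = 0.101). The part of fat in the result was not tested. The call was also lost without PBS control-blocker array 2 (estimate −0.86, limma adjusted p = 0.320), without that array and bleomycin CAV1-blocker array 6 together (−0.86, adjusted p = 0.218), and without bleomycin control-blocker array 1, 2, 5 or 6 or bleomycin CAV1-blocker array 2 (estimates −1.01, −0.99, −1.02, −0.95 and −1.03, limma adjusted p = 0.0770, 0.0660, 0.0668, 0.0565 and 0.0536). It was lost too with the mean of the gene's 10 spots (−0.92, adjusted p = 0.0597), although every one of these spots had an estimate between −1.03 and −0.82.

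Under the CAV1 blocker, 0 of 10 cardiac genes were called between bleomycin and PBS by limma, where 0.517% of all genes were called. None had an unadjusted p under 0.05 in either direction, where 7.67% of all genes had one with a lower value and 7.15% with a higher value. The estimates were below 0 for 8 of 10 (51.2% of all genes; 6 to 9 without 1 array), with a median of −0.38. Myh6 had −0.58 (95% interval −1.31 to 0.15) and Mybpc3 −0.53 (−1.22 to 0.16). The exceptions were Actc1, at 0.068 (−0.54 to 0.67), and Hspb7, at 0.48 (−0.031 to 0.98, limma adjusted p = 0.369). For none of the 10 did the groups separate, where 20.7% of all genes did. Fast skeletal muscle genes ran the other way, at 6.85 to 6.95 in the 2 PBS arrays and 7.18 to 10.57 in the 6 bleomycin arrays, with 17 of 17 estimates above 0 and Mybpc2 called (2.26, limma adjusted p = 0.0247). Of 11 squamous epithelium genes 9 had estimates above 0 and 1 was called, Sprr1a, a cornified envelope protein, at 7.66 in both PBS arrays and 9.30 to 11.82 after bleomycin (3.38, limma adjusted p = 0.0432).

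After bleomycin, the CAV1 blocker against the control blocker asks what the blocker changed in injured lung, and it rests on 6 arrays against 6. Of the members, 0 of 10 were called by limma, where 1.61% of all genes were called, and none had separated groups, where 2.33% of all genes did. All 10 estimates were below 0, as were 54.4% of all genes, and their median was −0.26. Without bleomycin control-blocker array 3 the count was 7, and 8 to 10 without any other single array. Mybpc3 alone had an unadjusted limma p under 0.05 (0.0192), where 4.6% of all genes had one with a lower value and 4.48% with a higher value. Its estimate was −0.60 (SE 0.229, 95% interval −1.09 to −0.11, limma adjusted p = 0.366). Nppa had the largest estimate, −0.81, with an interval from −1.93 to 0.31. For Hspb7 it was −0.22 (−0.58 to 0.14), for Actc1 −0.035 (−0.46 to 0.39) and for Myl7 −0.059 (−0.57 to 0.46).

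In lung that received PBS, 2 arrays stood against 2. Hspb7 was again called, 1 of 10, where 0.31% of all genes were called and 0.0345%, or 7 genes, were called lower. It was lower with the CAV1 blocker by 1.73 on the log2 scale, as an estimate of −1.73 (SE 0.292, 95% interval −2.35 to −1.10, limma adjusted p = 0.0181), from 9.03 ± 0.25 to 7.31 ± 0.34 (SD, n = 2 each), a 3.31-fold difference. Its p was the 30th smallest of 20304, and its 10 spots had estimates between −1.73 and −1.58. The other 9 did not pass the test. All 10 estimates were below 0 (44% of all genes), with a median of −0.41. With the fast skeletal muscle level as a covariate 3 of 10 were below 0, and Nppa (0.64), Sln (0.73), Myh6 (0.54), Actc1 (0.42), Myl4 (0.27), Mybpc3 (0.26) and Myl7 (0.10) were above it. Without PBS control-blocker array 1 the count was 7, and without PBS CAV1-blocker array 1 it was 8. In the fit to all arrays the estimates reached from −0.0021 for Myh6 (95% interval −0.90 to 0.89) to −1.24 for Nppa among those not called (−3.17 to 0.70, limma adjusted p = 0.500). Nppa, Tnni3, Actc1 and Hspb7 lay wholly lower, 4 of 10, where 14.7% of all genes did. This comparison and the first share the PBS control-blocker arrays, so their estimates for a gene are not independent.

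In the same PBS arrays, 1 gene of the fast skeletal muscle and squamous lists was called. All 17 fast skeletal muscle genes had estimates below 0 (median −3.51), the list being at 9.48 to 11.63 with the control blocker and 6.85 to 6.95 with the CAV1 blocker, and 16 of 17 lay wholly lower. Of these 1 was called, Mybpc2 (−2.28, limma adjusted p = 0.0454). The squamous list was at 9.94 to 10.56 and 6.63 to 6.75, with 10 of 11 wholly lower and 0 called, 7 having an unadjusted p under 0.05. Such a p with a lower value was found for 4.55% of all genes. With the fast skeletal muscle level as a covariate, the Hspb7 estimate was −1.26 (limma adjusted p = 0.365). That level did not overlap between these groups, so the fit cannot tell the blocker from the skeletal level. The call was lost without PBS control-blocker array 2 (−1.55, limma adjusted p = 0.0653) or PBS CAV1-blocker array 1 (−1.48, adjusted p = 0.183), and it held without PBS control-blocker array 2 and bleomycin CAV1-blocker array 6 together (−1.55, adjusted p = 0.0365). The part of squamous epithelium in the result was not tested.

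The interaction asks whether the effect of bleomycin differed between the blockers. By limma 0 of 20304 genes were called (0%), 3.22% having an unadjusted p under 0.05 with a positive interaction and 6.01% with a negative one. For Hspb7 the interaction was 1.51 (SE 0.337, 95% interval 0.79 to 2.23), the 7th smallest p of all genes (0.000435), and its limma adjusted p was 0.497. The interval for each of the other 9 members held 0, and their estimates ran from −0.30 (Mybpc3) to 0.53 (Sln). Without PBS control-blocker array 1, Hspb7 was called (1.68, limma adjusted p = 0.0281), with 3011 genes called in all. That fit left a single array in its group, which was taken to vary like the others.

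**Figure D2:**
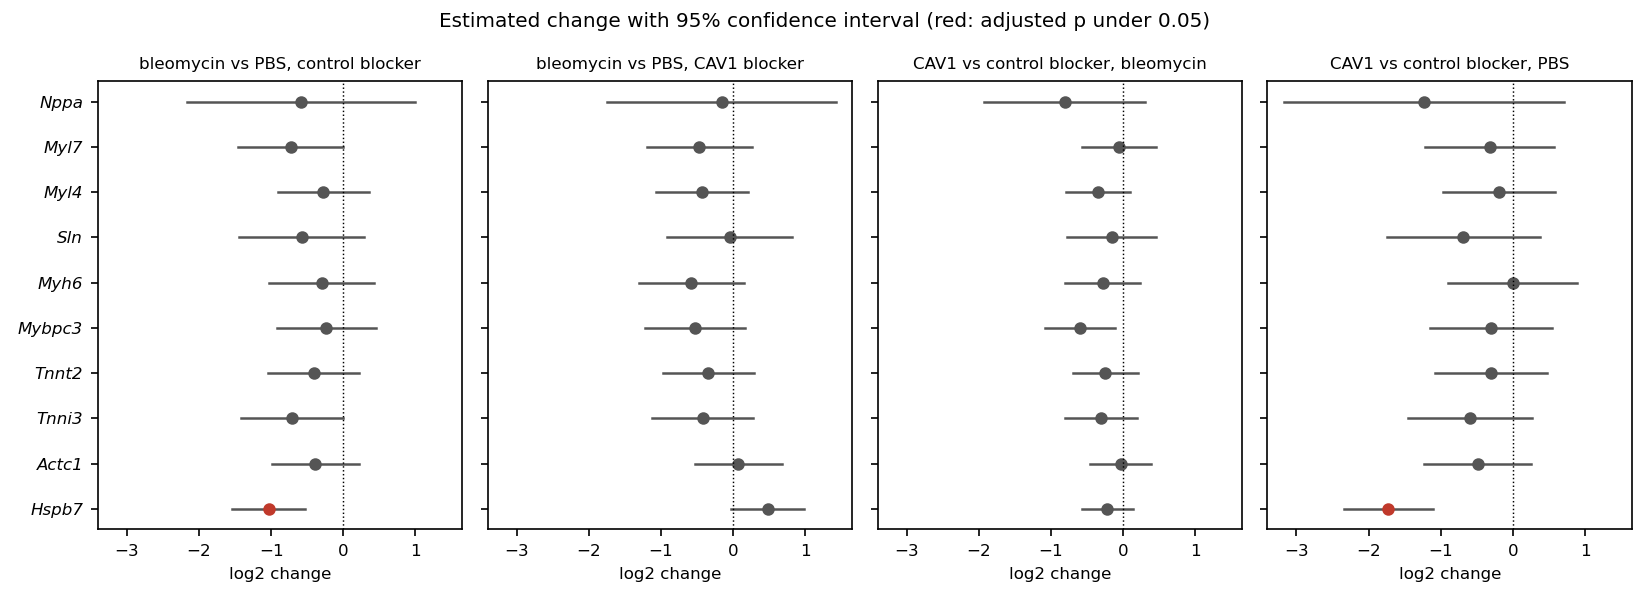
Estimated log2 change (horizontal axis, dotted line at 0) of the 10 genes (vertical axis) with 95% confidence intervals in the 4 comparisons, red where the limma adjusted p was under 0.05. Hspb7 is red at −1.03 for bleomycin against PBS with the control blocker and at −1.73 for the CAV1 against the control blocker after PBS, and no other gene is red.

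Which arrays were high was largely the same for all members. Bleomycin control-blocker array 3 was among the 4 highest of 16 for 10 of 10 genes, PBS control-blocker array 1 for 9 and bleomycin control-blocker array 4 for 7. Bleomycin CAV1-blocker array 2 was among the 4 lowest for 7 genes and bleomycin control-blocker array 6 for 6. The mean of the 10 members was 13.07 in bleomycin control-blocker array 3 and 11.56 in bleomycin CAV1-blocker array 2. Both extremes were thus bleomycin arrays, and the arrays of the 6-member control-blocker group covered ranks from 1 to 15 of 16.

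Correlations between the members over the 16 arrays were computed for all 45 pairs, with permutation p-values adjusted over them. Pearson's r ran from 0.325 to 0.956, with a median of 0.760, and 43 pairs had an adjusted permutation p under 0.05 by r and 41 by Spearman's rho. After the mean of each group was subtracted, r ran from 0.411 to 0.977 and 43 pairs passed. The 36 pairs without Hspb7 had r of 0.626 to 0.956, and all 36 passed. The 9 pairs with Hspb7 had r of 0.325 (Myh6) to 0.752 (Tnni3), and 7 passed.

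Within the set, 3 tighter groupings appeared. Myl4 and Myh6 had an r of 0.956 (rho 0.965, adjusted permutation p = 4.5e-05), Myl4 and Mybpc3 of 0.940 and Myh6 and Mybpc3 of 0.924. Troponin T and troponin I (Tnnt2 and Tnni3) had an r of 0.954 (rho 0.959, adjusted permutation p = 4.5e-05), Myl7 and Tnni3 of 0.952 and Myl7 and Tnnt2 of 0.949. Sln and Actc1 had an r of 0.923 (rho 0.909, adjusted permutation p = 4.5e-05). The unadjusted permutation p of these pairs, 1e-05, is the smallest that 100000 permutations can give. Without the 2 arrays farthest from the median of the first gene of each pair, r was 0.928 for Myl4 and Myh6, 0.942 for Tnnt2 and Tnni3 and 0.891 for Sln and Actc1. The 7 pairs within a grouping had r of 0.923 to 0.956, and the 21 pairs between groupings had r of 0.626 (Sln and Tnni3) to 0.878 (Myl4 and Tnnt2), with a median of 0.745. The groupings were read from the pairs after these were computed and carry no test of their own.

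**Figure D3:**
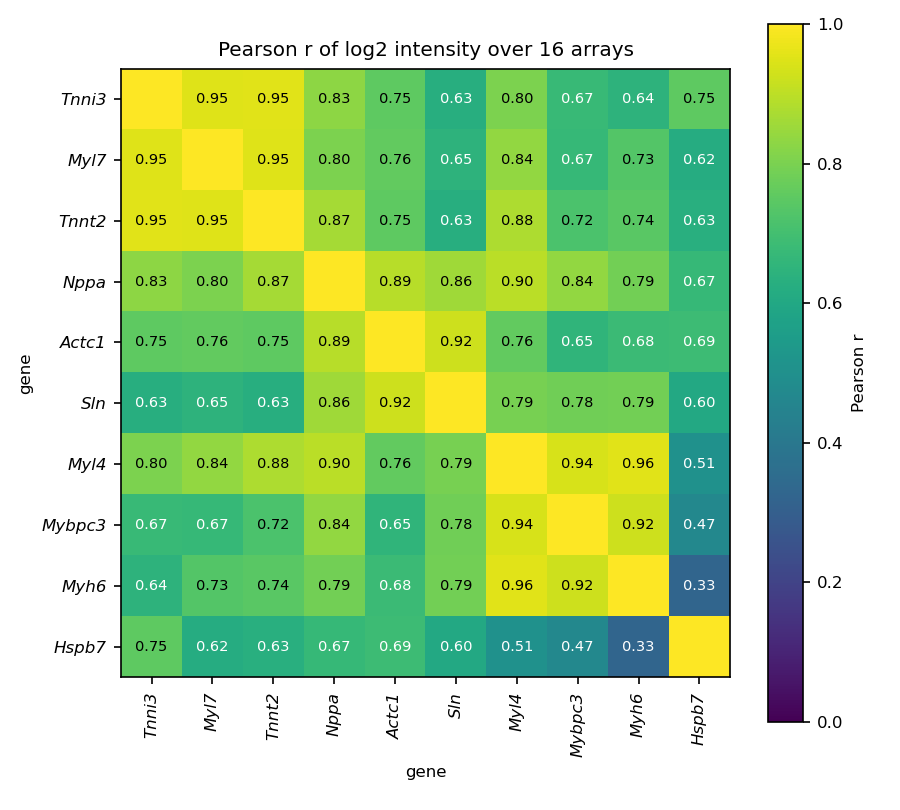
Pearson's r of log2 intensity between each pair of the 10 genes over 16 arrays, by colour and number, with genes ordered so that tight pairs stand together. Myl7, Tnnt2 and Tnni3 form one block (0.949 to 0.954), Myl4, Mybpc3 and Myh6 another (0.924 to 0.956), and the lowest value, 0.325, is that of Hspb7 with Myh6.

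The groupings showed in single arrays. PBS control-blocker array 2 ranked 1st for Tnni3 and 2nd for Myl7 and Tnnt2, and 9th for Myh6, 8th for Mybpc3 and 7th for Myl4. Bleomycin CAV1-blocker array 6 ranked 6th, 7th and 8th for Tnni3, Myl7 and Tnnt2, and 15th, 14th and 12th for Myh6, Mybpc3 and Myl4. These are among the arrays whose median correlation with the rest was lowest.

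The genes whose profile was most like the mean of the 10 members, by Pearson's r over 16 arrays among 20294 genes and given as a description, were Casq2 (0.941), which encodes cardiac calsequestrin, and Myoz2 (0.934), a Z-disc protein. Ank1, Phkg1, Sds, Gm6559, Atp2a2, Abcc8, Rnf207 and Kcnj5 followed, down to 0.874. Of these Gm6559 (5.76 to 6.21) and Sds (5.92 to 6.45) were at the dim end of the array. All these points share an array, its normalization and its makeup of tissue. By single member, the closest gene was Ank1 for Nppa (0.888), Atp2a2 for Myl7 (0.940), Gm6559 for Myl4 (0.943), Hrc for Sln (0.971) and Tnni3k for Myh6 (0.967). It was Rnf207 for Mybpc3 (0.935), Mybphl for Tnnt2 (0.939) and for Tnni3 (0.979), Csrp3 for Actc1 (0.941) and Myoc for Hspb7 (0.930). Myoc was dim, at 6.06 to 6.90, and its r with Hspb7 was 0.718 within groups. Hspb7 had Des, the intermediate filament of muscle, second (0.891). Genes with an r above 0.8 numbered from 11 (Tnnt2) to 71 (Sln), while the median r over all genes was between −0.098 and 0.016.

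Among 19 further genes of cardiac contraction and calcium handling, 0 were called by limma in any comparison. With bleomycin under the control blocker 16 of 19 had estimates below 0 (median −0.34), 6 of them with an unadjusted p under 0.05, and with the CAV1 blocker after PBS 15 of 19 (median −0.39), 5 with such a p. Among all genes 5.41% and 4.55% had such a p with a lower value, in the same order. Tnnc1, the calcium-binding troponin C of heart and slow muscle, had the smallest p of the list with bleomycin under the control blocker, at 9.31 and 9.46 in PBS and 8.14 to 9.08 after bleomycin (estimate −0.91, limma adjusted p = 0.0645). Of the 19 genes, 9 were highest in PBS control-blocker array 1, among them Hrc (11.83), a calcium-binding protein of the sarcoplasmic reticulum, 5 in bleomycin control-blocker array 3, 3 in PBS control-blocker array 2 and 2 in PBS CAV1-blocker array 2. Casq2 was at 9.05 and 8.67 in PBS with the control blocker, 7.80 and 8.81 in PBS with the CAV1 blocker, and highest, 9.07, in bleomycin control-blocker array 3. The others highest there were Ryr2, the calcium release channel (8.29), Atp2a2, the calcium pump (11.60), Pln, which restrains it (8.55), and Mylk3, a kinase of cardiac myosin light chain (6.81).

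Among 8 measured atrial genes outside the 10, 0 were called by limma in any comparison. Kcnj5, a subunit of the atrial acetylcholine-gated potassium channel, ran from 7.13 to 8.31 and followed the mean of the members (r = 0.874). Its partner Kcnj3 lay near the array median, at 5.97 to 6.79 (r = 0.763). The other 6 had r of −0.283 (Bmp10) to 0.471 (Sbk2), and the median of the 8 was 0.125. Bmp10, a growth factor of the atrial wall, stayed at 5.62 to 6.22, at the dim end of the array. Of the 12 cardiac transcription factor and pacemaker genes, 0 were called by limma. Nkx2-5 ran from 6.11 to 6.91 and was highest in bleomycin control-blocker array 3, and Hcn4, the pacemaker channel, stayed at 5.80 to 6.14. Tbx5, which lung mesenchyme also expresses, was at 10.76 to 11.55 and did not follow the members (r = 0.072). Over the 12 genes r with the mean of the members ran from −0.069 (Shox2) to 0.748 (Nkx2-5), with a median of 0.458.

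The ventricular list differed from gene to gene. Over its 8 genes r with the mean of the members ran from −0.377 (Irx4) to 0.759 (Lrrc10), with a median of 0.316. Myl2 was near the array median in 15 arrays, at 6.26 to 6.78, and at 11.25 in PBS control-blocker array 1. Myh7, the beta heavy chain of ventricle and slow fibres, was at 12.57 in that array (10.47 to 12.00 elsewhere). Myl3, shared by ventricle and slow fibres, was at 9.85 to 10.80 in the 5 arrays with the low skeletal level and 12.56 to 14.57 in the other 11. Nppb, the ventricular natriuretic peptide, was at 6.11 to 6.73 in 15 arrays and 7.70 in bleomycin control-blocker array 3, the array with the highest Nppa. Of the 8 ventricular genes, 0 were called by limma in any comparison, with 3 at an unadjusted p under 0.05 for bleomycin under the control blocker. All 3 were lower, where 5.41% of all genes had such a p with a lower value.

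**Figure D4:**
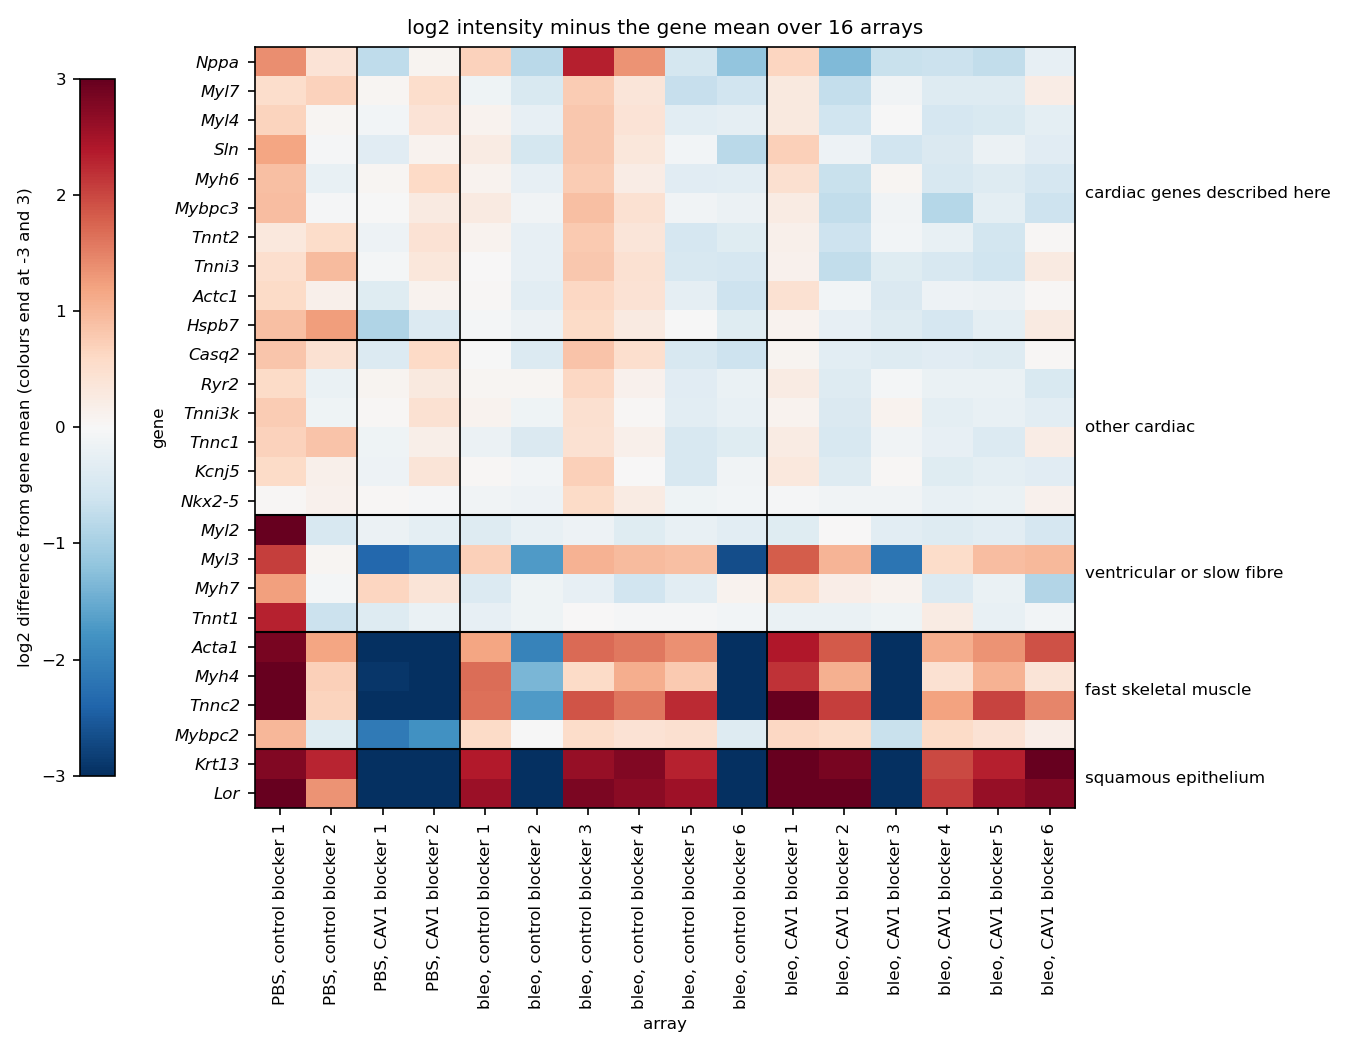
Log2 intensity minus the gene's mean over 16 arrays (colour, ending at −3 and 3) for the 10 cardiac genes and for genes of the compared lists (rows) in each array (columns, by group). The cardiac rows share warm columns in PBS control-blocker array 1 and bleomycin control-blocker arrays 3 and 4. The Acta1, Myh4, Tnnc2, Krt13 and Lor rows are cold in the 5 arrays with the low skeletal level, where Krt13 was at 5.97 to 6.08. Mybpc2 overlapped, at 7.46 to 9.58 in the 5 and 9.22 to 10.58 in the other 11.

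A further list held 23 genes shared by heart and skeletal muscle. With bleomycin under the control blocker 23 of 23 had estimates below 0 (median −0.85) and 1 was called, Xirp1, an actin-binding protein of striated muscle, which fell by 1.04 on the log2 scale (SE 0.224, limma adjusted p = 0.0283). With the CAV1 blocker after PBS 23 of 23 were below 0 (median −1.20) and 0 were called by limma, 14 having an unadjusted p under 0.05. Such a p with a lower value was found for 4.55% of all genes. Under the CAV1 blocker, bleomycin gave 20 of 23 above 0 (median 0.51), where 8 of 10 members were below 0.

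The cardiac genes were next set against the skeletal split directly. Each of the 10 overlapped between the 5 arrays of low and the 11 arrays of high skeletal level. Myh6 was at 14.50 to 15.40 in the 5 and 14.15 to 15.70 in the 11, and Tnnt2 at 11.86 to 12.65 and 11.60 to 13.02. Acta1, the skeletal alpha actin, was at 7.53 to 9.87 in the 5 and 12.95 to 14.70 in the 11. Hspb7 was at 7.06 to 7.79 in the 5 and 7.46 to 9.21 in the 11, with Actc1 at 13.28 to 14.01 and 13.62 to 14.51. PBS CAV1-blocker array 2, one of the 5, had the third highest Myh6 (15.40) and Myl4 (15.03) of the 16 arrays.

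Since the arrays fell into these 2 clusters, the correlation of each member with the fast skeletal muscle level was taken within the 11 arrays only, 10 relations in all. Sln had an r of 0.782 (permutation p = 0.00359, adjusted p = 0.0359) and a rho of 0.618 (adjusted permutation p = 0.356). Without PBS control-blocker array 1 and bleomycin CAV1-blocker array 1, the 2 farthest from the median, its r was 0.377, so the relation rests on those arrays. No member passed when PBS control-blocker array 1, bleomycin control-blocker array 4, or bleomycin CAV1-blocker array 1 or 4 was left out singly, 2 passed without bleomycin CAV1-blocker array 2, and 3 without bleomycin control-blocker array 3. The other 9 members had r from 0.168 (Tnnt2) to 0.663 (Myh6), with adjusted permutation p of 0.086 or more, and −0.169 to 0.221 without the same 2 arrays. The 5 low arrays are too few for a correlation.

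**Figure D5:**
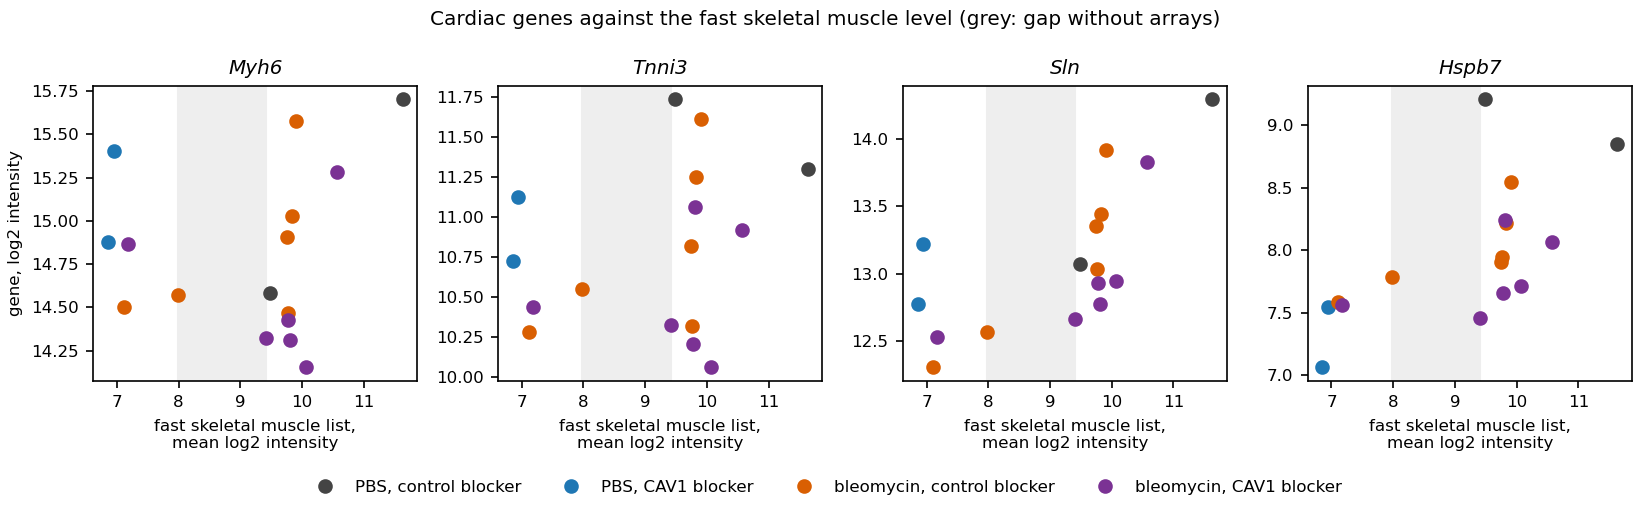
Log2 intensity of Myh6, Tnni3, Sln and Hspb7 (vertical axes) against the mean log2 intensity of the fast skeletal muscle list (horizontal axis), 1 point per array coloured by group, with the gap without arrays between 7.98 and 9.41 in grey. Myh6 covers nearly the same range on both sides of the gap (14.50 to 15.40 and 14.15 to 15.70), while Hspb7 is at most 7.79 on the left and reaches 9.21 on the right.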

How the data were processed

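Whole-lung RNA of 16 mouse samples was measured on 1 single-colour Agilent array each. The deposited values are log2 intensities made by the authors with limma, per the submitters' processing notes, which give no version. All arrays had nearly one distribution (minimum 5.39 to 5.41, median 6.51 to 6.52, maximum 18.28). Precision is limited by the number of arrays. Background correction, slide and detection marks are not given in the sources used here.

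Of 62976 spots, 31465 carried 1 gene symbol, 0 several and 31511 none. RefSeq accessions (GRCm38.p6, used for names and promoter windows) matched 29050, which changed 2933 symbols. The brightest spot stood for each of 20863 genes, and the 20304 genes that exceeded the 25th percentile on 2 or more arrays were tested. A mean per group was fitted to 16 arrays with limma 3.58.1 on R 4.3.3 (12 residual degrees of freedom, two-sided, Benjamini-Hochberg over all genes tested, called at an adjusted p under 0.05). Intervals are at 95%. Correlations across arrays used 100000 permutations, two-sided. The fit was also run on simulated data with independent noise for each gene, whereas genes varied together here. That run is no test of the calls reported here.

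The members, the gene lists and the rules for naming genes were chosen with earlier results of these data known. Named genes were all 10 members, any called gene of each list with up to 4 of smallest p, and the genes most like the members by correlation. Few of the small p were used, and other genes of a list were named after their values were seen. The alternatives were array weights, a block by replicate number, a deposit-order block, a fast skeletal muscle covariate, a fit to the compared arrays, other dim filters, a gene's spots averaged or every spot tested, quantile normalization once more, centring on the median, robust moderation with a trend, group-centred correlations, and leaving out each array. Leaving out PBS control-blocker array 2 with bleomycin CAV1-blocker array 6 was added after seeing the data.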

Additional observations from a re-analysis of the deposited data

Results flagged for a closer look

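Sln stood out in 1 array. In bleomycin CAV1-blocker array 1 it was at 13.83, while the other 5 arrays of the group were between 12.53 and 12.95. The gap was 0.681 of the group's range, above the limit of 0.625 for 6 arrays. The same array had the highest fast skeletal muscle level of its group, and the highest mean of the 10 members (12.50). Every member except Tnni3 and Hspb7 was highest of the group there, so the high value was not particular to Sln. Of 20 member groups checked, this was the 1 beyond the limit, and 7.31% and 9.08% of all genes tested passed it in the bleomycin control-blocker and CAV1-blocker groups, where chance alone gives about 1 in 20. Its cause was not tested.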

How the results depend on the processing

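The call of Hspb7 for bleomycin against PBS under the control blocker (1 of 10 members) became 0 with spots averaged, every spot tested, array weights, only the arrays of the comparison, the replicate block, the skeletal covariate, and PBS control-blocker array 2 and bleomycin CAV1-blocker array 6 left out together, and 0 to 1 without 1 array (adjusted p 0.0197 to 0.320), its estimate being −1.05 to −0.84 over the settings and −1.21 to −0.86 without 1 array. For the CAV1 blocker after PBS it became 0 with array weights, the compared arrays alone, the replicate block and the covariate, and 0 to 1 without 1 array (0.00972 to 0.183), at −1.73 to −1.26 and −1.97 to −1.48. The interaction gave 0 to 1 without 1 array. Over the settings, the limma adjusted p of Hspb7 ran from 0.0316 to 0.9999 for bleomycin against PBS under the control blocker. For the CAV1 blocker after PBS it ran from 0.0131 to 0.520. Both highest values came with array weights, where 0 and 2 genes in all were called, in that order. The cause of the changed calls was not tested. Relations with the skeletal level numbered 1, 3 after group centring and 0 to 3 without 1 array. Of 640 values for single genes under other settings 603 kept direction and call, 11 lost the call and 26 changed sign, and of 800 without 1 array 757, 8 and 34, with 1 gaining a call. No called change turned its sign.

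Deviations of same-numbered arrays of different groups correlated at −0.69 to 0.44, and those of the bleomycin groups at −0.69 to 0.35. Arrays of different numbers were not compared, so whether replicate numbers pair the samples was not tested. With the replicate block, 1 gene in all was called for bleomycin under the control blocker, Hspb7 had an adjusted p of 0.345 and 0.195 in its 2 comparisons, and Sln turned to 0.100 for bleomycin under the CAV1 blocker.

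Sign changes, all of uncalled estimates, were as follows. With the covariate, Nppa was 0.18 and Sln 0.0014 (bleomycin, control blocker), Actc1 −0.57 (bleomycin, CAV1 blocker), Nppa 0.64, Myl7 0.10, Myl4 0.27, Sln 0.73, Myh6 0.54, Mybpc3 0.26 and Actc1 0.42 (blocker, PBS), and the interaction Nppa −1.66, Myl7 −0.21, Sln −1.04, Tnnt2 −0.25, Tnni3 −0.20 and Actc1 −0.56. Myh6 (blocker, PBS) was 0.12 with the mean of spots and 0.0038 with median centring. Array weights gave an interaction of −0.024 for Nppa and −0.16 for Tnnt2. Without the 2 arrays left out together the interaction was 0.17 for Myl4, 0.33 for Myh6, 0.24 for Mybpc3, −0.10 for Tnnt2 and −0.040 for Tnni3. Without 1 array, estimates ran from −0.60 to 0.036 for Myl4, −1.19 to 0.032 for Sln, −0.86 to 0.26 for Myh6 and −0.72 to 0.25 for Mybpc3 (bleomycin, control blocker), from −0.58 to 0.25 for Nppa, −0.27 to 0.17 for Sln and −0.17 to 0.31 for Actc1 (bleomycin, CAV1 blocker), from −0.17 to 0.12 for Myl7, −0.33 to 0.0053 for Sln and −0.15 to 0.092 for Actc1 (blocker, bleomycin), and from −0.51 to 0.12 for Myl4, −0.56 to 0.56 for Myh6 and −0.79 to 0.18 for Mybpc3 (blocker, PBS). The interaction ran from −0.064 to 0.92 for Nppa, −0.47 to 0.16 for Myl4, −0.082 to 1.14 for Sln, −0.84 to 0.28 for Myh6, −0.78 to 0.19 for Mybpc3 and −0.23 to 0.35 for Tnnt2.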
